A study of Arabidopsis thaliana with 8 samples.

Results

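The comparison described here is that of systemic with control leaves in plants of the Arabidopsis thaliana line dTLec1-1. Its members were the 2 arrays titled dTLEc systemic and the 2 titled dTLEc control, which make up 4 of the 8 arrays of the series, and all 22746 probe sets that are not array controls were used. The other 4 arrays hold the same leaf types of wild-type plants. Both genotypes were in the Columbia (Col-0) background. dTLec1-1 is a single SALK insertion line, that is, a line carrying a piece of foreign DNA inserted in its genome. The labels do not name the interrupted gene, so its transcript was not checked. Plants were 5 weeks old and grown in short days of 10 h of light. A temperature of 21 °C and 2 days at 4 °C are recorded for all 8 arrays, so neither differs between the groups. Tweezers were clamped over the midvein of some rosette leaves to wound them, and leaves labelled control and systemic were sampled for RNA after 2 h. Systemic leaves are by the usual meaning of the term unwounded leaves of a wounded plant. It is not stated where the control leaves were taken, from wounded or unwounded plants, or whether the 2 replicates were separate plants, so a p-value covers no more than the spread of these arrays, which may be technical. ATH1 arrays carry short probes for the 3′ ends of transcripts, and each probe set gives 1 expression value on a log2 scale.

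A wounded Arabidopsis leaf sends electrical and calcium signals through the veins to connected leaves, which then make jasmonic acid within minutes. Conjugated to isoleucine, the hormone binds the receptor COI1 and triggers destruction of JAZ repressors, which frees transcription factors such as MYC2 to turn on defence genes and the enzymes that make and inactivate jasmonate. Wounded tissue also loses water, and genes first known from cold, drought and abscisic acid, such as those of dehydrins, respond to wounding as well.

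The deposited values ran from 3.24 to 14.28, with array medians between 5.82 and 5.86. Replicate arrays correlated at 0.995 in dTLec control leaves and 0.994 in dTLec systemic leaves over all probe sets. The 2 replicates lay 2-fold or more apart at 20 probe sets in dTLec control leaves and at 61 in dTLec systemic leaves, against 139 in wild-type control and 25 in wild-type systemic leaves. Of the 11 leaf mesophyll markers 3 were measured by name, and their summed level was 15.01 and 15.05 (log2) in dTLec control and 14.94 and 14.93 in dTLec systemic leaves. The summed level of 3 of 8 root markers lay between 6.16 and 6.36 on the 4 dTLec arrays. That of 2 of 7 flower and pollen markers lay between 5.44 and 5.61. The 2 measured of 5 trichome markers summed to 9.48 and 9.59 in control and 9.86 and 9.95 in systemic leaves of dTLec, and their part in the results below was not tested. Only 1 of 9 epidermis and guard cell markers and none of 6 phloem and 7 xylem markers was measured by name, so the share of these cells was not checked.

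In dTLec plants the probe sets that passed were mainly raised in systemic leaves, while a count without adjustment leaned the other way. At unadjusted p under 0.05 in limma, 1711 probe sets (7.52%) were higher and 2036 (8.95%) lower. In limma's fit across all probe sets, 152 probe sets (0.668%) passed an adjusted p of 0.05, of which 111 (0.488%) were higher and 41 (0.18%) lower in systemic leaves. The raised ones lay between 0.48 and 4.00 log2 units above control, with a median of 1.22, and the lowered ones changed by -2.05 to -0.45, with a median of -0.63. The median over all probe sets was -0.01. Systemic and control arrays did not overlap at 47.1% of all probe sets, and at all of the 152, where passing with 2 arrays a group all but requires it. Of the 152, 79 probe sets carry 1 gene name, 58 of them raised and 21 lowered. The other 73 have no gene or several in the annotation used here and are called unnamed. In whole leaves, fewer cells of a type and less RNA per cell cannot be told apart.

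The call count depends on how the replicates enter the fit. At every probe set the mean of the replicate 1 arrays equalled that of the replicate 2 arrays, to within 7.5e-05 log2 units, so a difference between replicate numbers had already been taken out of the deposited values and the p-values of the fit without it are too small. With the replicate number as a block, 16 probe sets (0.0703%) passed, 15 raised and 1 lowered, and all 16 were among the 152. The 7 of them with a gene name were LTI30, AT3G47380, AT1G14780, AT5G55180, AT1G21790, AT2G38870 and AT3G50340, all raised. Each probe set has 2 arrays a group, and leaving out a single array moved the count. It was 0 without either dTLec control array, without replicate 2 of the dTLec systemic arrays or without either wild-type systemic array. It was 390 without 1 or the other wild-type control array.

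By size alone, 205 probe sets (0.901%) were at least 2-fold higher and 5 (0.022%) at least 2-fold lower. Without dTLec systemic replicate 2 the first count was 136, and without dTLec systemic replicate 1 it was 298. The second count was 15 without dTLec control replicate 1, 16 without dTLec control replicate 2 and 50 without dTLec systemic replicate 1. Of the 205, 44 were at least 4-fold and 12 at least 8-fold higher, and 67 of the 205 passed the test. The 138 that did not pass had a median standard error of 0.354 log2 units, against 0.222 for those that did, and 131 of them had an unadjusted p under 0.05. At 118 of the 205 the systemic array was at least 2-fold above the control array within both replicate numbers.

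Among named genes, the largest rise that passed was that of LTI30, and some unnamed probe sets rose further. LTI30 encodes a dehydrin, a hydrophilic protein that protects membranes in the cold and in drying tissue. LTI30 (AT3G50970) measured 6.51 and 6.22 in control leaves and 9.70 and 10.49 in systemic leaves of dTLec. Both systemic arrays stood far above both control arrays, a 13.3-fold rise (log2 change 3.73 ± 0.29 SE, n = 2 arrays a group, adjusted p = 0.0209 by limma, and 0.0247 with the replicate block). AT4G30650, of a small family of membrane proteins induced by low temperature and salt, went from 7.75 and 8.09 to 10.07 and 10.80, a log2 change of 2.51 ± 0.38 (limma adjusted p = 0.0442). The replicates of AT4G30650 differed less than the groups, and its block-adjusted p was 0.0745.

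**Figure D1:**
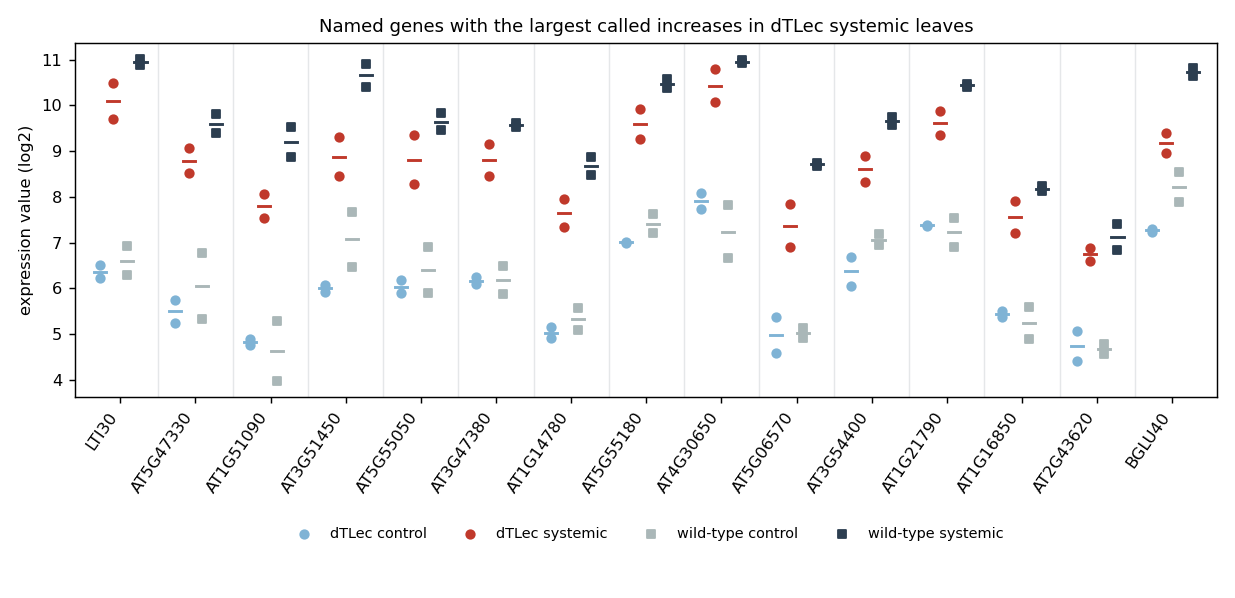
Expression values (log2) of the 15 named genes with the largest rises that passed the test in dTLec systemic leaves, 1 point per array, with a line at the mean of the 2 arrays of a group. The 15 were chosen as passing with groups that do not overlap, and they run from LTI30 with a log2 change of 3.73 to BGLU40 with 1.91.

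The next 5 genes, also among the 15 highest, are described one by one, with no test of the families they belong to. AT5G47330, a hydrolase of the alpha/beta fold, measured 5.25 and 5.74 in control and 8.53 and 9.06 in systemic leaves, a 9.85-fold rise with an SE of 0.45 log2 units. AT5G55050, a lipase of the GDSL type, measured 5.89 and 6.19 in control and 8.29 and 9.35 in systemic leaves (2.78 ± 0.41). AT5G06570, related to carboxylesterases, measured 5.37 and 4.59 in control and 6.90 and 7.84 in systemic leaves (2.39 ± 0.34). In these 3 genes the second systemic array was the highest of the 4, and no control array reached a systemic one. AT3G47380, whose protein resembles inhibitors of pectin methylesterase, the enzyme that trims methyl groups from wall pectin, measured 6.25 and 6.09 in control and 8.45 and 9.16 in systemic leaves (2.63 ± 0.26, block-adjusted p = 0.0412 in limma). AT5G55180, a glycosyl hydrolase related to beta-glucanases, measured 7.02 and 6.9995 in control and 9.28 and 9.92 in systemic leaves (2.59 ± 0.22, block-adjusted p = 0.0328 in limma). The control replicates of AT5G55180 were nearly equal and its groups lay over 2 log2 units apart.

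The remaining genes among the 15 highest cover other roles. AT1G51090, a protein with a domain that binds heavy metals, measured 4.75 and 4.89 in control and 7.55 and 8.07 in systemic leaves, a 7.93-fold rise. AT3G51450, related to strictosidine synthases, measured 6.08 and 5.93 in control and 8.45 and 9.30 in systemic leaves, a 7.34-fold rise. AT1G14780, of the perforin-like MACPF family, measured 4.92 and 5.15 in control and 7.34 and 7.96 in systemic leaves, a 6.11-fold rise. At all 3 genes the replicates of a group lay within 1 log2 unit of each other and the groups lay further apart. AT3G54400, an aspartyl protease, rose 4.73-fold, AT1G21790, with a membrane domain shared with lipid-synthesis proteins, 4.73-fold, AT1G16850 4.34-fold, AT2G43620, a chitinase, 4.02-fold, and BGLU40, a beta-glucosidase, 3.75-fold. Limma's adjusted p ran from 0.0209 to 0.0442 over the 15 genes.

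Other single genes rose by smaller amounts; those in this and the next paragraph were chosen after their values were seen, except AT2G38870 and AT3G50340, and stand for no family. AT2G38870, a small inhibitor of serine proteases of the potato inhibitor type, measured 8.59 and 8.46 in control and 10.17 and 10.39 in systemic leaves, a 3.38-fold rise that also passed with the block (adjusted p = 0.0392 in limma). Such inhibitors block digestive enzymes of insects and are classic wound products in tomato. AT5G64120, a secreted peroxidase, went from 6.97 and 6.45 to 8.30 and 8.41, 3.13-fold. LCR69, a small defensin-like protein, went from 8.64 and 8.84 to 9.88 and 9.93, 2.24-fold. In each of these genes the 2 systemic arrays lay close together and above both controls. Of genes with wall-related products, AT3G09540, related to pectin lyases, rose 3.45-fold, AT3G04010, a glycosyl hydrolase, 3.26-fold, AT4G25260, a pectin methylesterase inhibitor, 2.52-fold, and AT3G49220, a pectin methylesterase, 2.08-fold. AT3G50340 rose 2.63-fold with 7.22 and 6.97 in control and 8.51 and 8.47 in systemic leaves.

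Regulatory and signalling genes that rose included AT1G10585, a bHLH transcription factor, with 4.23 and 3.98 in control and 5.60 and 6.35 in systemic leaves, 3.66-fold. The gene tny (TINY), an AP2/ERF factor that links cold, drought and ethylene responses, measured 6.05 and 5.93 in control and 7.41 and 8.24 in systemic leaves, 3.56-fold. PRN, a pirin, rose 3.19-fold and IQD23, a calmodulin-binding protein, 2.53-fold. These 4 genes were 1 to 2 log2 units higher in systemic leaves. SD1-29, a receptor kinase that senses bacterial fatty acids, rose 1.87-fold, and the receptor-like kinase AT3G02880 rose 1.70-fold. Protective proteins raised were AT3G09440, a cytosolic heat shock protein of the HSP70 class, at 2.62-fold, TIL, a lipocalin that guards membrane lipids in heat and cold, at 2.41-fold, and MSRB6, which repairs oxidised methionine, at 1.77-fold. AT2G38010, a neutral ceramidase of sphingolipid breakdown, rose 2.92-fold and BGLU25, a beta-glucosidase, 2.00-fold.

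Jasmonate genes were followed through lists chosen with earlier results of these data known. Most listed genes were not measured by name: 2 of 15 for synthesis and activation, 4 of 10 for turnover and 3 of 12 for jasmonate-responsive defence were. JMT, which turns jasmonic acid into its methyl ester, was the only 1 of these measured genes that passed, where 0.488% of all probe sets were raised. JMT (AT1G19640) measured 4.91 and 4.87 in control and 6.46 and 6.73 in systemic leaves of dTLec, a log2 change of 1.71 ± 0.25 (limma adjusted p = 0.044, block-adjusted 0.0755). OPCL1, which activates a jasmonate precursor for its last shortening steps, measured 8.16 and 7.77 in control and 7.82 and 7.91 in systemic leaves, so its groups overlapped. None of the 10 JAZ repressors was measured by name.

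The JOX enzymes oxidise jasmonic acid and so lower the hormone. JOX4 (AT2G38240) measured 6.87 and 7.30 in control and 9.84 and 10.93 in systemic leaves (9.84-fold, SE of the log2 change 0.55, limma adjusted p = 0.0574). JOX2 (AT5G05600) measured 7.84 and 7.34 in control and 9.54 and 10.66 in systemic leaves (2.52 ± 0.41, limma adjusted p = 0.0553). JOX3 (AT3G55970) measured 4.76 and 4.53 in control and 5.93 and 6.90 in systemic leaves (1.77 ± 0.40, limma adjusted p = 0.108). At these 3 genes the groups did not overlap and the systemic replicates lay about 1 log2 unit apart. None passed the test. JOX1 measured 4.17 and 4.39 in control and 4.28 and 4.45 in systemic leaves, where the groups overlapped. In wild-type plants all 4 JOX genes passed, against 5.91% of all probe sets raised, with log2 changes of 4.76 (JOX4), 3.44 (JOX2), 4.15 (JOX3) and 0.55 (JOX1). The difference between genotypes did not pass at any of them, with adjusted p of 0.531, 0.596, 0.231 and 0.38 in limma. Among jasmonate-responsive defence genes, the defensin PDF1.2 measured 6.10 and 5.82 in control and 5.21 and 6.48 in systemic leaves, so the systemic replicates lay on either side of the controls.

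Of the 31 genes listed for cold, dehydration and abscisic acid, 4 were measured by name, 1 of which (LTI30) passed, against 0.488% of all probe sets raised, and all 4 were higher at unadjusted p under 0.05, against 7.52%. Their median log2 change was 2.26 in dTLec and 2.66 in wild type, against -0.01 and -0.02 over all probe sets. All 4 belong to the fixed set of genes named in any case, chosen with earlier results of these data known. A wider group of 13 genes, without LTI30, was picked out by words for dehydrins and late embryogenesis proteins in the gene symbols and names. Whether each member is such a protein was not checked. The group had 0 passing and 4 higher at unadjusted p under 0.05, with a median of 0.13 in dTLec and 0.18 in wild type. These 4 were COR15A, COR15B and COR47, already counted in the list above, and COR27. COR15A, a chloroplast protein that stabilises membranes during freezing, measured 8.39 and 9.17 in control and 11.05 and 11.58 in systemic leaves (limma adjusted p = 0.0642). COR47, a dehydrin, measured 10.66 and 10.87 in control and 12.36 and 13.15 in systemic leaves (limma adjusted p = 0.0642). Both genes separated the groups by more than 1 log2 unit without passing. COR15B, the close relative of COR15A, measured 8.56 and 8.60 in control and 9.05 and 9.38 in systemic leaves (limma adjusted p = 0.104).

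The 18 pathway lists name 251 genes, of which 47 were measured by name. LTI30 and JMT were the 2 that passed, or 4.26% of the measured members against 0.668% of all probe sets. The lists were chosen with earlier results of these data known, so the larger share among their members is no test of the lists. Of the 4 measured auxin response genes, GH3.3, which conjugates auxin to amino acids, measured 7.90 and 7.28 in control and 8.68 and 8.87 in systemic leaves (limma adjusted p = 0.0625). The 4 glucosinolate and tryptophan synthesis genes had a median log2 change of 0.34 in dTLec and 0.99 in wild type, with 0 passing in dTLec and 4 raised in wild type, where 5.91% of all probe sets were raised. At unadjusted p under 0.05, 2 of these 4 were higher in dTLec, against 7.52% of all probe sets. The 4 cell wall loosening genes had medians of -0.28 and -0.96, again with 0 passing in dTLec by limma, 0 at unadjusted p under 0.05 as well, and 2 lowered in wild type, against 6.03% of all probe sets there. Of 3 measured rapid stress regulators, WRKY53 measured 6.64 and 6.08 in control and 6.48 and 6.83 in systemic leaves, with overlapping groups. The clock gene GI measured 8.64 and 8.77 in control and 8.36 and 8.14 in systemic leaves (limma adjusted p = 0.174).

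**Figure D2:**
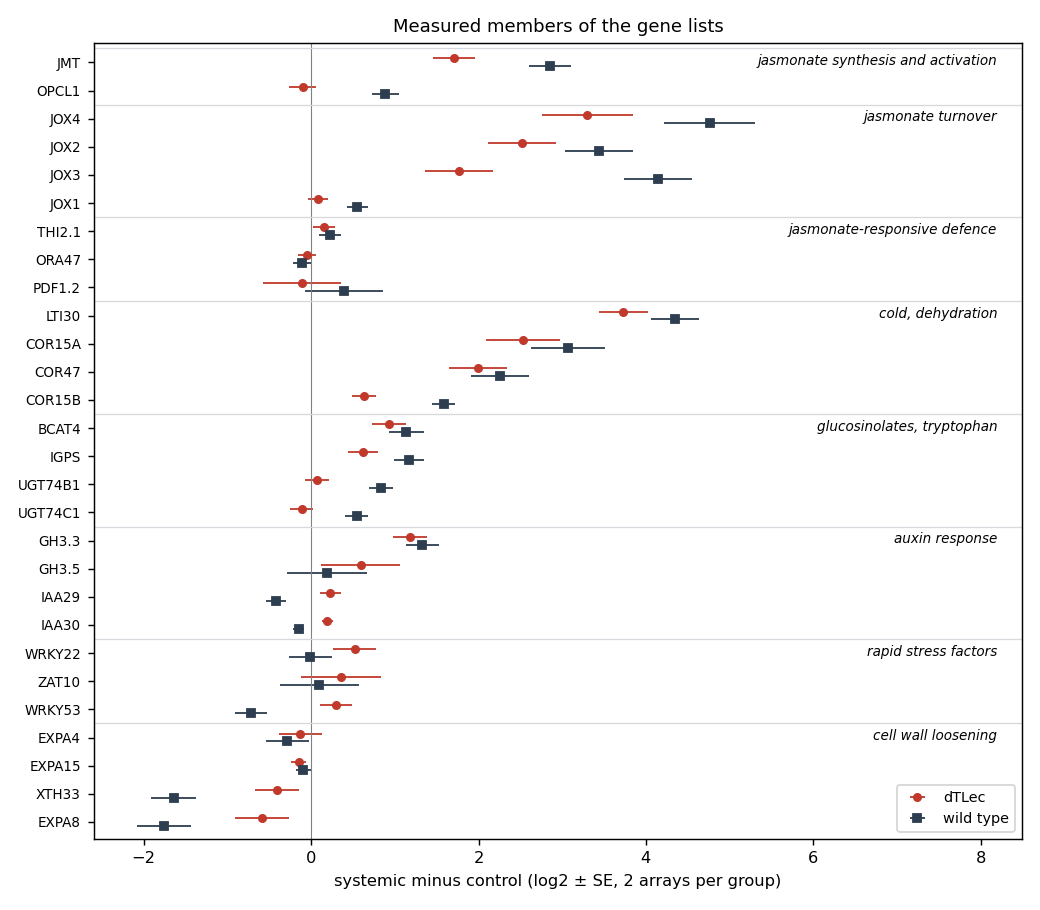
Log2 change from control to systemic leaves (± SE, 2 arrays a group) of measured members of 8 gene lists, with dTLec as circles and wild type as squares. LTI30, JOX4, COR15A, JOX2 and COR47 have the 5 largest dTLec values, and wild type lies to the right of dTLec at each of these 5 genes.

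Lowered genes changed less than raised ones. AT5G28630 had the largest fall among named genes that passed, from 8.03 and 7.88 in control to 6.79 and 6.47 in systemic leaves (log2 change -1.33 ± 0.20, limma adjusted p = 0.0442). AT4G10910 measured 6.59 and 6.67 in control and 5.70 and 5.57 in systemic leaves (2.00-fold lower, SE 0.10 log2 units, limma adjusted p = 0.0209). AT3G43670, a copper amine oxidase, which breaks down polyamines, measured 7.82 and 8.04 in control and 7.05 and 7.10 in systemic leaves (-0.85 ± 0.10, limma adjusted p = 0.0289). In all 3 both systemic arrays were below both control arrays by more than the replicates differed. AT5G61590 (DEWAX), a factor that represses leaf wax synthesis, went down as well, with 11.87 and 11.75 in control and 11.13 and 11.15 in systemic leaves (-0.67 ± 0.08). AT1G70740 and AT2G07180, both protein kinases, fell by 0.70 and by 0.66 on the log2 scale, and AT4G36550, a U-box protein of the ubiquitin system, fell by 0.67. The other 5 of the 12, AT5G49100, AT5G57785, AT4G37020, AT4G18740 and AT2G32000, changed by -0.84 to -0.63. CBL, the cystathionine beta-lyase of methionine synthesis, chosen after its values were seen, went from 9.41 and 9.37 to 8.84 and 8.70. No named lowered gene passed with the replicate block; the 1 lowered probe set that did is unnamed and had a log2 change of -1.01.

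**Figure D3:**
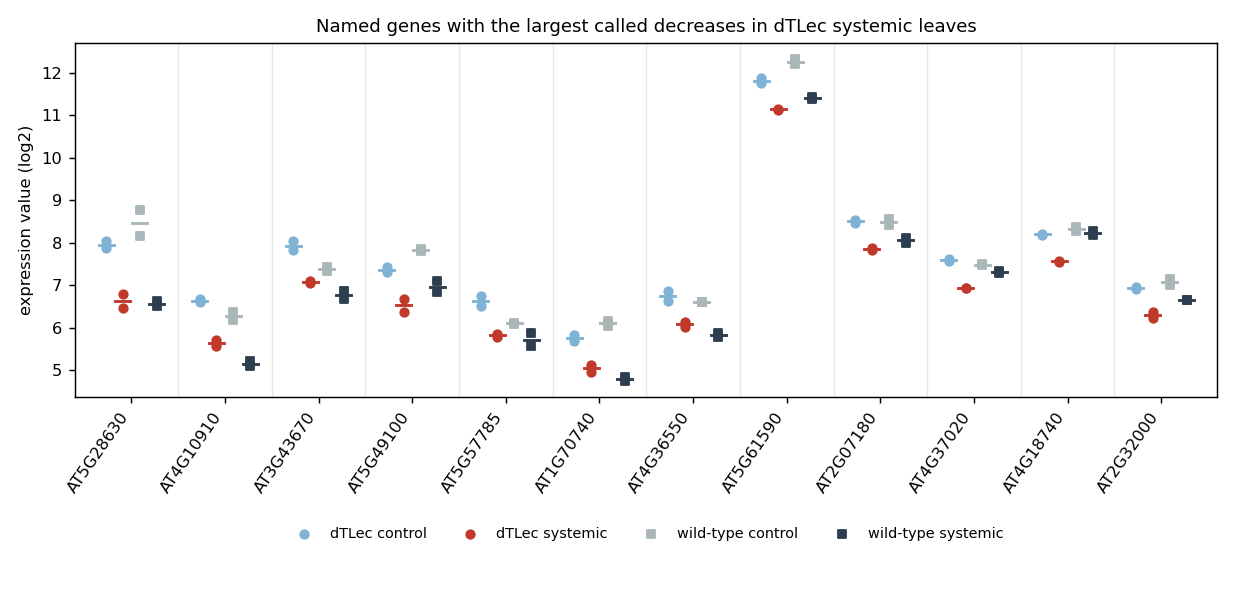
Expression values (log2) of the 12 named genes with the largest falls that passed the test in dTLec systemic leaves, 1 point per array, with a line at the mean of the 2 arrays of a group. The falls in dTLec run from -1.33 at AT5G28630 to -0.63 at AT2G32000; at AT4G18740 the wild-type change was -0.10.

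Across 20 families picked out by words in the gene symbols and names, 1 of 327 measured members passed (0.668% of all probe sets did), the peroxidase AT5G64120. Serine carboxypeptidases, some of which build sinapate and glucose esters rather than cut proteins, had 29 measured members, 21 of them below 0 and 9 lower at unadjusted p under 0.05 (background 8.95%), with 0 passing in limma. SCPL34, named like UGT87A2 below after its values were seen, was the furthest down, with 8.24 and 8.65 in control and 7.67 and 7.60 in systemic leaves. Of 28 cytochrome P450 genes, 5 were lower at unadjusted p under 0.05 (background 8.95%) and all 5 belonged to the 19 measured CYP71B genes, whose median log2 change was -0.12 in dTLec and -0.18 in wild type. Of 51 UDP-glycosyltransferases 5 were higher (background 7.52%) and 5 lower at unadjusted p under 0.05. UGT87A2 was highest, with 6.23 and 5.52 in control and 6.94 and 8.04 in systemic leaves. The 69 plastid-encoded genes had a median log2 change of -0.23 in dTLec and -0.02 in wild type, with 61 of 69 below 0 against 52.5% of all probe sets, and 0 passed in limma. At unadjusted p under 0.05, 6 of the 69 were lower, a share no higher than the 8.95% of all probe sets.

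Rises were larger in replicate 2 than in replicate 1 when arrays of the same number were compared. The labels do not say whether same-numbered arrays belong together. Over the 205 probe sets at least 2-fold higher in dTLec systemic leaves, the median log2 response within a replicate number was 1.08 in replicate 1 and 1.82 in replicate 2. Within a number the response was larger in replicate 2 at 184 of the 205. The share over all probe sets was not counted, and the 205 are read from the same arrays, so they are not separate cases. Over the same probe sets wild type gave 1.76 and 2.60. Since a constant taken from both leaf types of a replicate number cancels in these differences, they are not altered by the adjustment of the deposited values. The differences within a group are altered by it: with the replicate-number means made equal, the 4 groups' differences must sum to 0 at each probe set, so their signs are partly set by that step. As deposited, the median of replicate 2 minus replicate 1 over the 205 was 0.60 in dTLec systemic, -0.19 in dTLec control, 0.17 in wild-type systemic and -0.63 in wild-type control leaves. The 205 were chosen on the dTLec arrays, so the same within-number medians were taken for the 512 probe sets at least 2-fold higher in wild type, where the dTLec medians were 0.56 and 1.08 and those of wild type 1.28 and 1.83.

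**Figure D4:**
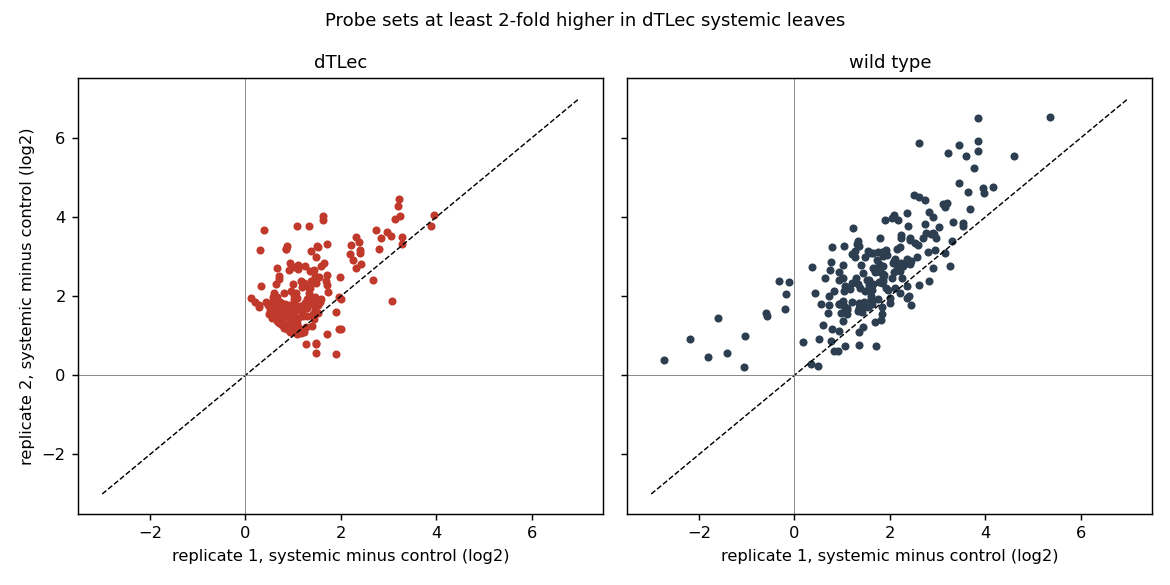
Systemic minus control (log2) within replicate 2 (vertical axis) against replicate 1 (horizontal axis), 1 point per probe set at least 2-fold higher in dTLec systemic leaves, with dTLec on the left, wild type on the right and a dashed line of equal responses. Medians over the 205 probe sets are 1.08 and 1.82 in dTLec and 1.76 and 2.60 in wild type.

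In the same fit 2716 probe sets (11.9%) passed in wild type, 1344 (5.91%) higher and 1372 (6.03%) lower in systemic leaves. It fell to 806 or 1341 when replicate 2 or replicate 1 of the wild-type systemic arrays was left out, to 1665 when replicate 2 of the wild-type controls was, and to 1596 with the replicate block. Of the 152 dTLec calls 141 also passed in wild type, which is 92.8% of the dTLec calls and 5.19% of the wild-type calls. Both tests use the same estimate of the spread at a probe set, so a small estimate favours passing in both genotypes. The spread of log2 changes over all probe sets was 0.271 (SD) in dTLec and 0.404 in wild type, with the 99th percentile at 0.94 and 1.62. The changes of the 2 genotypes correlated at 0.740 over the probe sets, a description only, since genes do not vary independently and both genotypes went through 1 normalization. At the 111 raised probe sets the wild-type change was larger at 100, with medians of 1.22 in dTLec and 1.75 in wild type, although these probe sets were chosen for their rise in dTLec. It was larger at all 15 highest genes. At the 41 lowered ones the wild-type change was the more negative at 20, with medians of -0.63 and -0.61.

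A test of the difference between the 2 responses passed at 1 of 22746 probe sets (0.0044%), with 11.2% at unadjusted p under 0.05. That probe set, 263443_at, is unnamed. It measured 9.15 and 9.35 in control and 8.72 and 8.65 in systemic leaves of dTLec, a log2 change of -0.57, while that of wild type was -2.54. The difference was 1.97 ± 0.12 (limma adjusted p = 0.0187, and 0.0849 with the replicate block, where it did not pass). Among the 15 highest genes the smallest adjusted p of the difference was 0.346. Other gaps were wide without passing, in genes chosen after their values were seen. The change of AT1G10585 was 1.87 in dTLec and 4.29 in wild type (difference -2.42 ± 0.38, limma adjusted p = 0.13). The receptor-like kinase AT3G03770 rose by 0.58 in dTLec and by 1.67 in wild type (limma adjusted p of the difference 0.0683). AT3G48460, a GDSL lipase, changed by 1.19 and by 2.62 (limma adjusted p of the difference 0.102).

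Of the 152, 11 probe sets did not pass in wild type, 3 raised and 8 lowered, and 5 of them carry a gene name; all are named here after their values were seen, apart from those among the 12 lowest. AT5G02540, a short-chain dehydrogenase, measured 9.30 and 9.19 in control and 10.13 and 10.16 in systemic leaves of dTLec, a log2 change of 0.90 against 0.18 in wild type. AT4G37020 changed by -0.65 against -0.18, and AT4G18740 by -0.64 against -0.10. AT5G57785 changed by -0.81 against -0.39, and AT3G18500 by -0.45 against 0.13. The dTLec groups did not overlap at any of these 5 genes. The difference between genotypes did not pass at any of the 11, with limma adjusted p from 0.125 to 0.436, and since they were chosen as passing in 1 genotype and not in the other, a gap between the genotypes is largely fixed by that choice. The widest gap was at the unnamed probe set 245928_s_at, which measured 9.10 and 8.19 in control and 6.28 and 6.90 in systemic leaves of dTLec, a log2 change of -2.05 against 0.36 in wild type (difference -2.41 ± 0.45, limma adjusted p = 0.169). Its suffix marks a probe set shared by related transcripts, so the value may come from more than 1 gene.

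**Figure D5:**
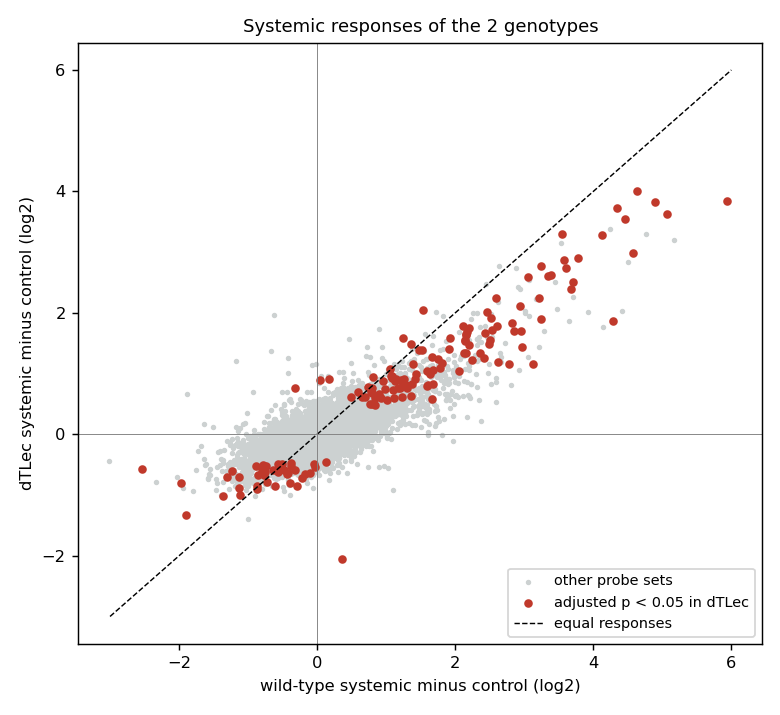
Log2 change from control to systemic leaves in dTLec (vertical axis) against wild type (horizontal axis), 1 point per probe set, with those that passed in dTLec in red and a dashed line of equal change. Most raised red points lie below the line, 100 of 111, and the changes correlate at 0.740 over all probe sets.

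Large changes that did not pass were found in dTLec as well, in genes chosen after their values were seen. AT1G15010 measured 7.43 and 7.80 in control and 10.17 and 11.46 in systemic leaves (limma adjusted p = 0.0974). AT5G62360, a pectin methylesterase inhibitor, measured 9.92 and 9.42 in control and 11.16 and 12.18 in systemic leaves (limma adjusted p = 0.0584). AT4G28140, an AP2/ERF factor, measured 4.95 and 4.42 in control and 6.64 and 6.79 in systemic leaves (limma adjusted p = 0.0805). In each the groups stayed apart. CML41, a calmodulin-like calcium sensor, measured 5.03 and 6.13 in control and 6.98 and 8.12 in systemic leaves, with replicates over 1 log2 unit apart in both groups (limma adjusted p = 0.302). The largest changes of all that passed were at unnamed probe sets, 266743_at with 5.14 and 5.79 in control and 9.09 and 9.83 in systemic leaves, and 264415_at with 4.10 and 3.88 in control and 7.33 and 8.33 in systemic leaves. The first was a 16.0-fold rise and the second a 14.3-fold rise, which also passed with the block (adjusted p = 0.0412 in limma).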

How the data were processed

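RNA of 8 leaf samples was hybridised to Affymetrix ATH1 arrays, 1 array a sample, with 10 µg of total RNA labelled, per the labels' protocols. The authors deposited normalized log2 values, 1 per probe set and array. RMA and Partek are named in the submitters' processing notes, with versions and roles not given in the sources used here. The log2 scale was read from the values. Such normalization removes shifts shared by all transcripts and compresses differences at low levels. Arrays have no read depth, and their number limits the precision.

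Here 64 array controls were left out of 22810 probe sets. Genes were named through the platform annotation, updated with the TAIR10.1 gene table. 13513 probe sets had 1 gene, 503 several and 8730 none, and only the first are named. No build is named for the arrays, so no coordinates are given, and no sequences or promoter motifs were analysed here. All 8 arrays entered 1 cell-means model in limma 3.58.1 (R 4.3.3), with contrasts for dTLec, for wild type and for their difference. Benjamini-Hochberg adjustment ran over 22746 probe sets with a threshold of 0.05, two-sided. Main fits leave out the replicate number, and a fit with it as a block has 3 residual degrees of freedom in place of 4. The fits were tested on simulated data with independent noise on each array. The simulation lacked the equal replicate-number means of the deposited values, so it cannot show how far these affect the p-values. Alternatives were the block, each genotype alone, array centring, cyclic loess, quantile normalization, a filter at a mean of 6, an intensity trend with a robust prior, and leaving out each array.

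The comparison, its gene lists and its rules were chosen with earlier results of these data known. Genes named are the 15 highest and 12 lowest of those that passed, had 1 gene and did not overlap between groups, those that passed with the block, members of a list that passed, and a fixed set of jasmonate, cold, auxin, clock and stress genes. Others are said to be chosen after their values were seen. Word patterns for families were corrected after clone names matched by mistake.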

Additional observations from a re-analysis of the deposited data

Results flagged for a closer look

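The response of the unnamed probe set 263443_at differed between genotypes by the test of the difference in the main fit, but not with the replicate block. Its log2 change was -0.57 in dTLec and -2.54 in wild type, a difference of 1.97 ± 0.12 (limma adjusted p = 0.0187, and 0.0849 with the block). The cause was not tested.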

How the results depend on the processing

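The dTLec count of 152 was 16 with the replicate block and 324 with each genotype fitted alone. Leaving out 1 array gave 0 to 390. Array centring, cyclic loess, quantile normalization, the filter on dim probe sets and the intensity trend gave 177, 149, 162, 200 and 178. For the difference of the responses, 1 in the main analysis, counts were 0 with the replicate block, 8 with arrays centred, 3 with quantile normalization, 10 with the intensity trend, and 0 to 5 with 1 array left out. The wild-type count of 2716 was 1596 with the replicate block and 806 to 2582 with 1 array left out. The cause was not tested, except that the block and left-out arrays take residual degrees of freedom.

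The labels do not say what a replicate number marks, so the main fit did not use the numbers as pairs. The differences within a replicate number given above set same-numbered arrays against each other for description only. Same-numbered dTLec leaves deviated from their group means with a correlation of -0.13 and wild-type ones with -0.29. With the difference between replicate numbers removed, such values are pushed below 0 on average, though not at every pair of groups. Their sign therefore cannot show whether the numbers mark pairs. With dTLec alone, chosen after seeing the data, a block of same numbers gave 722 calls and the crossed pairing 732.

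Of 100 genes followed, 79 passed and none of these changed sign. The dTLec groups of all that passed do not overlap, so leaving out 1 array cannot reverse their sign. Of those that did not pass, 3 changed sign with 1 array left out, JOX1 (-0.023 to 0.19), OPCL1 (-0.30 to 0.10) and PDF1.2 (-0.75 to 0.52, and 0.03 without dTLec control replicate 1). The promoter motif description was not run.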
